A study of Drosophila melanogaster with 16 samples.

Results

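The peaks of WOC and of HP1c in fly heads were compared site by site. Each list was divided into peaks that overlapped a peak of the other factor by at least 1 bp, called shared here, and peaks that did not, called WOC alone or HP1c alone. The 4896 WOC and 4252 HP1c peaks, 9148 of the 23128 peaks in the 5 lists of the study, fell into 2621 shared WOC peaks, 2645 shared HP1c peaks, 2275 WOC peaks alone and 1607 HP1c peaks alone. "Alone" refers to this pair of factors only, since ROW, HP1b or H3K4me3 could still be present. The ROW list (5302 peaks) was then laid over each set.

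Chromatin was immunoprecipitated from heads of Drosophila melanogaster and sequenced (ChIP-seq) with antibodies to WOC, HP1c, ROW and H3K4me3 (3 libraries each) and to HP1b and with IgG (2 libraries each). All 16 libraries carry the same genotype label, Actin-gal4/+ (W1118) control, and all flies were kept at 25°C under 12 h of light and 12 h of dark. This genotype carries the Gal4 driver of the Actin gene without a target transgene named in the labels. The sources used here do not give the age or sex of the flies, the number of heads per library or whether replicates came from separate collections. Heads contain neurons, glia, photoreceptors, fat body and other cells, so a shared site need not hold both proteins in the same cell or at the same time.

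WOC and ROW are zinc-finger proteins, and HP1c is a member of the heterochromatin protein 1 family, whose chromodomain binds methylated histone H3. In Drosophila, HP1c is known mainly from euchromatin and is known to form a complex with WOC and ROW. HP1b is a related family member found in both euchromatin and heterochromatin, and H3K4me3 marks the start of active genes.

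Each antibody is represented by 1 peak list in which the replicates had been combined, so neither the spread between replicates nor the depth of a library is known. Peaks are not replicates, and no p-value was computed over them. Shares are given with 95% Wilson intervals and medians with exact binomial intervals, which cover counting error only. The factor lists hold positions and no signal per peak, and a site without a listed peak may still have bound the factor below the calling limit. All coordinates are dm3, 1-based. Genes and DNA sequences at the sites were not analysed here.

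ROW had about the same frequency at WOC peaks with HP1c and at WOC peaks without it, and was much less frequent where HP1c stood without WOC. Of all WOC peaks 81.5% overlapped ROW. The share was 81.5% of shared WOC peaks (2137 of 2621, 95% CI 80.0 to 83.0) and 81.4% of WOC peaks alone (1851 of 2275, 79.7 to 82.9). Of all HP1c peaks 57.5% overlapped ROW, but this value joined a pair of unlike sets. ROW was present at 81.6% of shared HP1c peaks (2158 of 2645, 80.1 to 83.0) and at 17.9% of HP1c peaks alone (287 of 1607, 16.1 to 19.8). The last share was 11.4% when every list was limited to peaks at or above its own median width. That limit also removed narrow WOC and ROW peaks, so a narrow partner no longer counted. With all partners kept, the ROW share of HP1c peaks alone went up with HP1c width. It was 11.7% (9.45 to 14.4) in the narrowest of 4 width classes and 34.6% (27.7 to 42.2) in the widest.

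Read in the other direction, ROW separated HP1c peaks by whether WOC was there but did not separate WOC peaks by whether HP1c was there. WOC was met by 88.3% of the HP1c peaks with ROW (2158 of 2445, 86.9 to 89.5) and by 27.0% of those without ROW (487 of 1807, 25.0 to 29.0). HP1c was met by 53.6% of the WOC peaks with ROW (2137 of 3988, 52.0 to 55.1) and by 53.3% of those without ROW (484 of 908, 50.1 to 56.5). A further 287 sites thus held ROW and HP1c without WOC, against 1851 that held ROW and WOC without HP1c.

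The equal ROW shares of the WOC sets did not hold within strata of peak width or of the histone mark. WOC peaks were ordered by width into 4 classes of nearly equal size. In the narrowest class (240 to 323 bp) ROW was present at 54.9% of shared peaks (50.4 to 59.2) and at 61.3% of peaks alone (57.8 to 64.7). In the second class (324 to 423 bp) the shares were 71.9% (68.0 to 75.5) and 84.6% (81.6 to 87.1), and in the next (424 to 579 bp) 88.3% (85.6 to 90.6) and 95.7% (93.8 to 97.1). In the widest class (580 bp or more) they were 96.4% (95.04 to 97.5) and 97.3% (94.8 to 98.6). At equal width, then, ROW was less frequent at shared WOC peaks in both middle classes, with overlapping intervals in the narrowest and the widest class.

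Stratified by the mark, the order turned. Among WOC peaks that overlapped H3K4me3, ROW was present at 98.2% of shared peaks (860 of 876, 97.1 to 98.9) and at 93.6% of peaks alone (1117 of 1194, 92.0 to 94.8). Among WOC peaks without the mark the shares were 73.2% (71.1 to 75.2) and 67.9% (65.1 to 70.6). WOC peaks alone were more often marked than shared WOC peaks but less often wide, with 297 of 2275 against 926 of 2621 in the widest class. Limiting every list to peaks at or above its own median width gave 75.4% of shared WOC peaks and 85.9% of WOC peaks alone. That limit also dropped narrow HP1c and ROW peaks. Its 1301 WOC peaks alone thus include peaks that overlapped a narrow HP1c peak, and its values are not comparable with the width classes.

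Over all contigs together, H3K4me3 was most frequent at WOC alone and least frequent at HP1c alone. Of all WOC peaks 42.3% overlapped the mark. It was present at 52.5% of WOC peaks alone (1194 of 2275, 50.4 to 54.5) and at 33.4% of shared WOC peaks (876 of 2621, 31.6 to 35.3). Of all HP1c peaks 16.4% overlapped the mark, with 23.6% of shared HP1c peaks (623 of 2645, 22.0 to 25.2) and 4.67% of HP1c peaks alone (75 of 1607, 3.74 to 5.81). Defining sharing by centres within 200 bp gave 8.07% of HP1c peaks alone. Pooled over contigs, sharing a site thus went with less of the mark in the WOC list and with more of it in the HP1c list. Shared WOC and shared HP1c peaks lie at the same sites, but a wider peak reaches the mark more easily. Measured by centres, 38.5% of shared WOC peaks lay within 1 kb of an H3K4me3 summit (36.7 to 40.4). For shared HP1c peaks the share was 39.45% (37.6 to 41.3). It was 65.3% for WOC peaks alone (63.3 to 67.25) and 9.33% for HP1c peaks alone (8.01 to 10.9).

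ROW divided each of these sets further. Shared WOC peaks carried the mark at 40.2% with ROW (38.2 to 42.3) and at 3.31% without it (16 of 484, 2.05 to 5.30). WOC peaks alone carried it at 60.3% with ROW (58.1 to 62.6) and at 18.2% without it (77 of 424, 14.8 to 22.1). HP1c peaks alone carried it at 9.41% with ROW (27 of 287, 6.55 to 13.3) and at 3.64% without it (48 of 1320, 2.75 to 4.79). Shared sites without ROW therefore had a share of the mark close to that of HP1c alone without ROW, with overlapping intervals, and below that of WOC alone without ROW.

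Over all contigs together, HP1b was present at most sites where both factors met and at few sites of WOC alone. Of all WOC peaks 34.3% overlapped HP1b, with 57.7% of shared WOC peaks (1512 of 2621, 55.8 to 59.6) against 7.25% of WOC peaks alone (165 of 2275, 6.26 to 8.39). Of all HP1c peaks 44.3% overlapped HP1b, with 57.3% of shared HP1c peaks (55.4 to 59.2) and 23.0% of HP1c peaks alone (369 of 1607, 21.0 to 25.1). At shared WOC peaks the HP1b share was 58.5% with ROW (56.3 to 60.5) and 54.3% without it (49.9 to 58.7). The sets alone differed with ROW, and in opposite directions. At WOC alone the HP1b share was 5.35% with ROW (4.41 to 6.47) and 15.6% without it (12.4 to 19.3), and at HP1c alone it was 32.8% with ROW (27.6 to 38.4) and 20.8% without it (18.7 to 23.1). HP1c was present at 90.2% of the WOC peaks that held HP1b (1512 of 1677, 88.6 to 91.5) and at 34.5% of those that did not (1109 of 3219, 32.8 to 36.1). By contig, HP1b was at 53.0% of shared WOC peaks on the main arms (47.2% on 3R). It was at 79.35% of them on chromosome 4 and at 73.7% on the heterochromatin contigs. For WOC peaks alone the main arms had 6.11% (5.2 to 7.2). Chromosome 4 had 28.95% (11 of 38, 17.0 to 44.8) and the heterochromatin contigs 24.5% (23 of 94, 16.9 to 34.05).

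**Figure D1:**
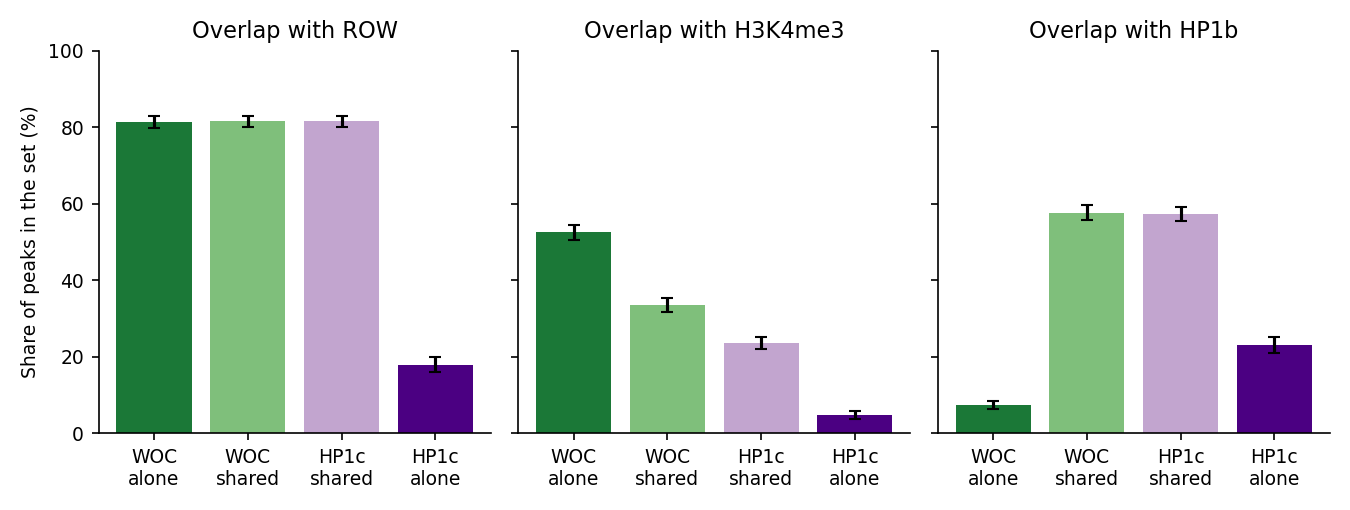
Share of peaks (%) that overlapped ROW, H3K4me3 or HP1b by at least 1 bp in 4 sets of peaks, with 95% Wilson intervals as error bars. ROW was near 81.5% in the first 3 sets and 17.9% at HP1c alone, while H3K4me3 went from 52.5% at WOC alone to 4.67% at HP1c alone.

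Joined into regions, the overlapping peaks gave 2603 shared regions covering 1.70 Mb, beside 2275 regions of WOC alone covering 0.952 Mb and 1607 of HP1c alone covering 0.571 Mb. The most frequent kind of shared region held ROW and HP1b without the mark (820, 31.5%). ROW and the mark without HP1b were found at 455 (17.5%), ROW alone beside the pair at 428 (16.4%), and ROW, HP1b and the mark together at 420 (16.1%). HP1b alone beside the pair was found at 257 (9.87%), and 207 (7.95%) held none of the other marks or factors. WOC alone differed, with 1075 of 2275 regions holding ROW and the mark without HP1b (47.3%), 677 holding ROW only (29.8%) and 282 holding nothing else (12.4%). Of the HP1c regions alone, 1003 of 1607 held nothing else (62.4%) and 269 held HP1b only (16.7%).

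Shared peaks were wider than peaks alone in both lists, and peaks with ROW were wider than peaks without it in every set. The median width of WOC peaks was 484 bp when shared (95% CI 473 to 495) and 378 bp when alone (369 to 387). For HP1c it was 424 bp when shared (414 to 433) and 313 bp when alone (307 to 319). Width also enters the rule that made these sets, because a wider peak can meet another more readily. A gap under 200 bp to the other factor was found at 0.571% of WOC peaks alone and 0.747% of HP1c peaks alone. How far the rule accounts for the width difference was not tested.

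The ROW difference was larger in WOC than in HP1c. Shared WOC peaks had a median of 533 bp with ROW (521 to 543) and 332.5 bp without it (325 to 344), and WOC peaks alone 406 bp (399 to 414) and 290 bp (285 to 295). Shared HP1c peaks had 435.5 bp with ROW (425 to 448) and 385 bp without it (373 to 400), and HP1c peaks alone 356 bp (338 to 376) and 306 bp (301 to 312). Shared HP1c peaks were also wider with HP1b, at 497 bp (485 to 512), than without it, at 349 bp (342 to 361). They did not follow the mark in the same way, at 407 bp with H3K4me3 (391 to 432) and 427 bp without it (418 to 439), whereas shared WOC peaks had 636 bp (617 to 655) and 412 bp (404 to 422).

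**Figure D2:**
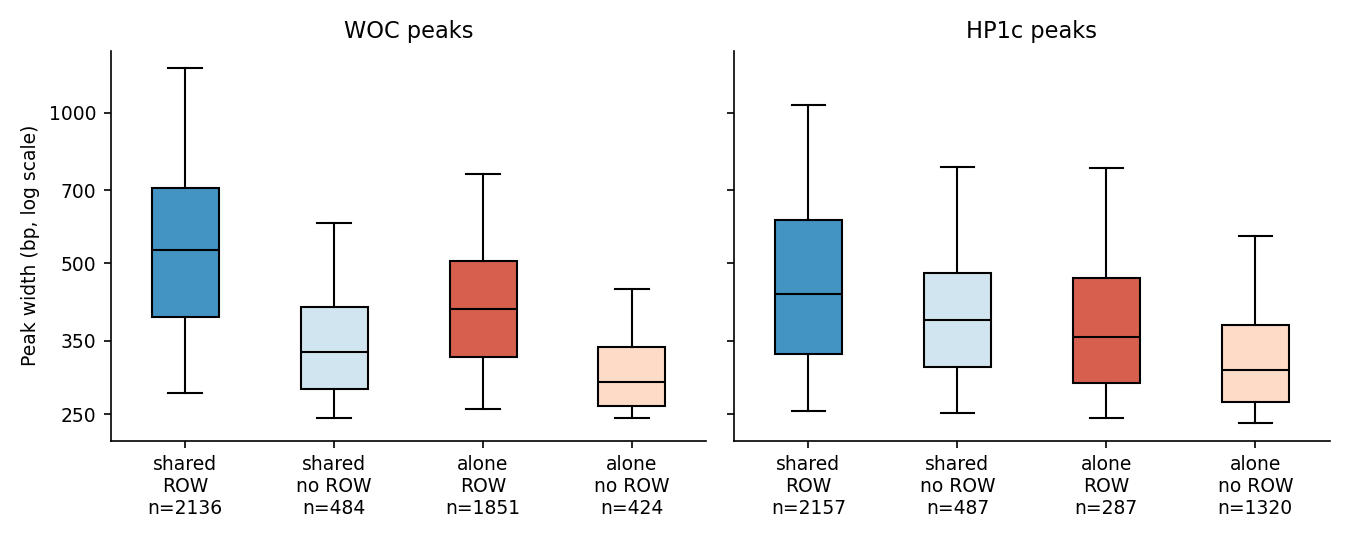
Width (bp, log scale) of WOC and HP1c peaks by whether they were shared and whether ROW overlapped them, without the mitochondrial peaks. Boxes span the quartiles with the median as a line, and whiskers the 5th to 95th percentiles. The median of shared WOC peaks was 533 bp with ROW and 332.5 bp without it.

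The share of WOC peaks that met HP1c went up with each class of WOC width, from 39.4% (36.7 to 42.1) through 45.2% and 53.9% to 75.7% (73.2 to 78.0). The share of HP1c peaks that met WOC went from 40.0% (37.1 to 43.0) at 235 to 293 bp through 53.2% and 71.0% to 84.8% (82.5 to 86.8) at 511 bp and wider. Within shared HP1c peaks the HP1b share went across the same classes from 24.6% (20.7 to 28.9) to 80.6% (77.8 to 83.0). Their ROW share moved less, from 78.9% (74.8 to 82.5) to 88.3% (86.1 to 90.3), and their H3K4me3 share was 27.4% (23.4 to 31.8) in the narrowest and 22.6% (19.9 to 25.4) in the widest class.

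The mitochondrial genome held 1 shared site, with a WOC peak of 19447 bp and an HP1c peak of 19469 bp. The ROW and HP1b lists held a peak of nearly the same span there (19451 and 19434 bp). Whether these peaks reflect binding was not tested, and the site is part of the counts of shared peaks with ROW. Outside the mitochondrial genome the widest shared regions lay on chromosome 4, which is short and largely heterochromatic. The first spanned 1217078 to 1222674 (5597 bp), where 1 WOC peak covered 2 HP1c peaks, and the next spanned 149651 to 154263 (4613 bp), where 1 WOC peak covered 4 HP1c peaks. A region of 3186 bp on 3LHet, pericentromeric sequence of arm 3L, spanned 1394683 to 1397868 with 1 peak of each. All 3 held ROW, HP1b and the mark. The widest shared regions without ROW were all on 3R and narrower, at 20241644 to 20243134 (1491 bp), 13245036 to 13246356 (1321 bp) and 22295545 to 22296792 (1248 bp). The regions of 1321 and 1248 bp held HP1b, and the latter also met H3K4me3 at a fold enrichment of 1.86.

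The widest WOC peaks alone with ROW were at X:11609058-11611054 (1997 bp), 2R:1193852-1195423 (1572 bp) and 2R:19864722-19866235 (1514 bp), and all 3 overlapped H3K4me3. Those without ROW were at 2R:937810-938693 (884 bp), 3RHet:1518798-1519630 (833 bp) and X:10033417-10034211 (795 bp), and none of the 3 overlapped the mark or HP1b. The widest HP1c peak alone with ROW was at 2L:11155831-11157118 (1288 bp), followed by 2L:21626028-21627146 (1119 bp) and 4:445282-446336 (1055 bp). Without ROW they were at 2R:14033152-14034478 (1327 bp), 3L:24317630-24318705 (1076 bp) and 2L:16143888-16144923 (1036 bp). None of these 6 overlapped H3K4me3, and 3 of them, at 2L:11155831, 4:445282 and 2R:14033152, overlapped HP1b.

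Where the factors shared a site, their peaks were nearly concentric. Of 2663 overlapping pairs, 2549 joined 1 WOC peak to 1 HP1c peak, and 2548 of these lay outside the mitochondrial genome. The median distance between the centres was 43 bp (40.5 to 46.5), with quartiles of 19.5 and 92.5 bp. The centres lay within 50 bp of each other in 54.4% of pairs (52.4 to 56.3), within 100 bp in 77.7% (76.0 to 79.2) and within 200 bp in 93.5% (92.5 to 94.4). ROW made little difference, with medians of 42 bp with ROW (39.5 to 45.5, 2069 pairs) and 48.5 bp without it (41 to 56, 479 pairs). On chromosome 4 the median was 64.75 bp (47.5 to 84.5, 156 pairs), on the main arms 42.25 bp (39.5 to 46) and on the heterochromatin contigs 40.25 bp (32.5 to 50.5). The offset grew with the width of the wider peak, from 30 bp (28 to 32.5) for pairs of up to 410 bp to 74 bp (66.5 to 81.5) for pairs of 719 bp or more. The overlap rule itself limits how far apart the centres of a pair can lie, and wider peaks allow a larger offset. How far this accounts for the small offsets and for their growth with width was not tested.

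**Figure D3:**
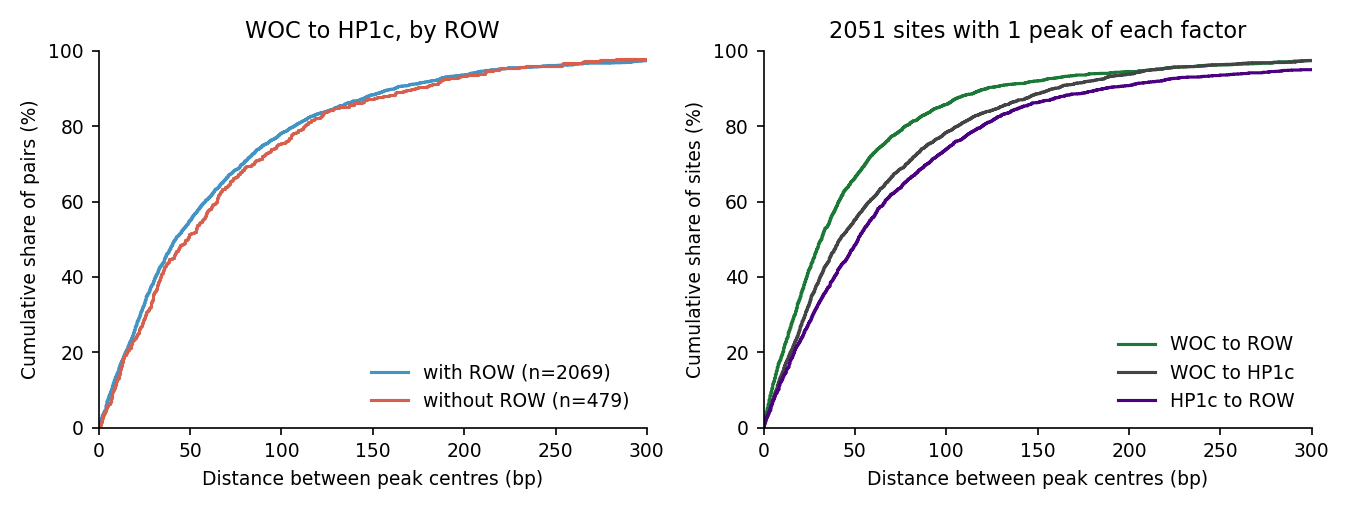
Cumulative share (%) of sites by the distance between peak centres (bp), for WOC and HP1c in pairs with and without ROW (left) and for the 3 factor pairs at 2051 sites with 1 peak of each factor (right). The left curves run close together, with medians of 42 and 48.5 bp, and on the right WOC to ROW lies above the others, with a median of 31.5 bp.

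At 2051 sites with 1 ROW, 1 WOC and 1 HP1c peak, the WOC centre was more often the nearer to the ROW centre. It was nearer than the HP1c centre at 1307 of the 2042 sites with unequal distances (64.0%, 61.9 to 66.1). The median offset was 31.5 bp between WOC and ROW (29.5 to 33), 42 bp between WOC and HP1c (39.5 to 45.5) and 52 bp between HP1c and ROW (49 to 54.5). The order of widths depended on the mark. At the 838 sites with H3K4me3 the medians were 714.5 bp for ROW (696 to 727), 628 bp for WOC (611 to 648) and 390 bp for HP1c (379 to 401). At the 1213 sites without it they were 435 bp (423 to 452), 449 bp (436 to 467) and 461 bp (445 to 476).

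The peak edges showed the same dependence in the pairs. WOC was the wider peak in 58.7% of the 2548 pairs (56.8 to 60.6), but in 86.1% of pairs with H3K4me3 (83.7 to 88.3) and in 44.8% of those without (42.4 to 47.2). With the mark, the HP1c peak lay wholly inside the WOC peak in 70.5% of pairs (605 of 858, 67.4 to 73.5). Without it the HP1c peak was inside in 21.1% (19.2 to 23.1), the WOC peak was inside in 28.8% (26.7 to 31.0), and the peaks were staggered in 50.1% (47.7 to 52.4). Pairs with ROW had WOC wider in 64.4% (62.3 to 66.5) and pairs without ROW in 34.0% (29.9 to 38.4).

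Since a wide WOC peak also reaches the mark more easily, the pairs were also divided by the distance of the WOC centre from the nearest H3K4me3 summit, which does not involve width. The median of WOC width minus HP1c width was 198 bp (184 to 212) in the 987 pairs within 1 kb of a summit. It was 4 bp (-9 to 16) in the 410 pairs at 1 to 5 kb and -35 bp (-44 to -26) in the 1151 pairs at 5 kb or more. On the main arms alone the 3 values were 201 bp (186 to 215), 2.5 bp (-10 to 16) and -27 bp (-39 to -18). Of the 987 pairs near a summit only 22 lacked ROW, and their difference was 1 bp (-70 to 115), against 202 bp (188 to 216) for the 965 with ROW. At 5 kb or more, it was -26 bp with ROW (-40 to -11) and -44.5 bp without it (-60 to -32).

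At pairs with ROW, HP1b went with a smaller excess of WOC width. Among pairs with ROW and the mark, the difference was 183 bp with HP1b (156 to 211, 394 pairs) and 243 bp without it (222 to 259, 448 pairs). Among pairs with ROW and no mark, it was -23 bp with HP1b (-38 to -8, 801 pairs) and 23 bp without it (12 to 39, 426 pairs), so that the wider factor differed between these groups. Among pairs with neither ROW nor the mark it was -49 bp with HP1b (-69 to -33) and -26 bp without it (-45 to -13), with overlapping intervals. HP1b was counted when it met either peak of a pair, so a wide HP1c peak also reaches HP1b more easily. How far this accounts for the differences was not tested.

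**Figure D4:**
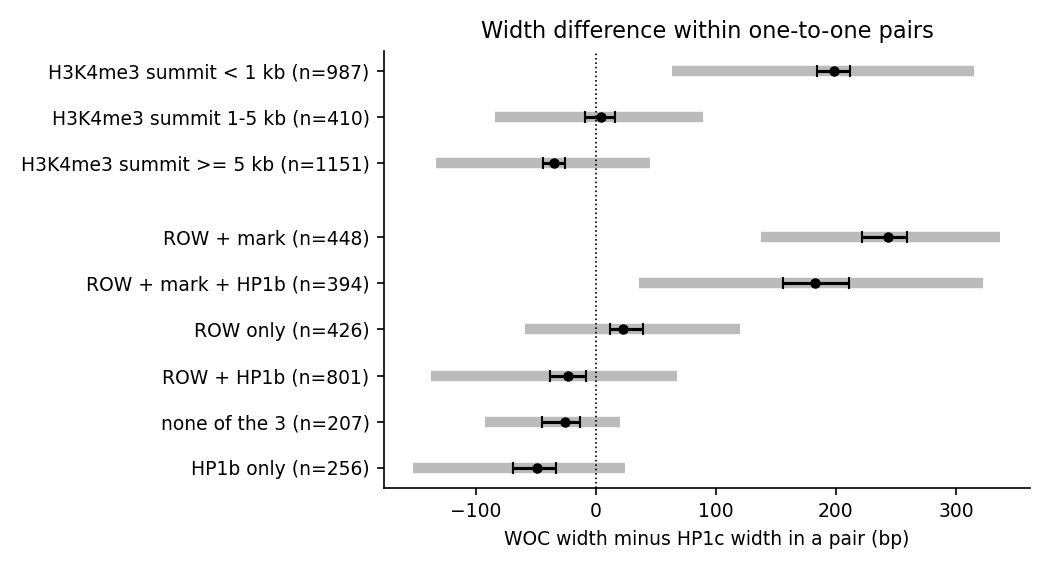
WOC width minus HP1c width (bp) in pairs of 1 WOC and 1 HP1c peak, by distance of the WOC centre from the nearest H3K4me3 summit (top) and by the other factors and the mark present (bottom). Points are medians with 95% intervals, and grey bars span the quartiles. The median went from 198 bp within 1 kb of a summit to -35 bp at 5 kb or more.

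Neither factor lay clearly closer to the summit. In the 987 pairs within 1 kb of one, the WOC centre was a median of 432 bp from it (418 to 440) and the HP1c centre 427 bp (415 to 436). Along the line to the summit the HP1c centre lay 7 bp farther away than the WOC centre at the median (offset toward the summit -7 bp, -11 to -2), and it was on the summit side in 440 of 981 pairs with an offset (44.9%, 41.8 to 48.0). Both shifts are small beside the quartiles of the same offset, -44.25 and 38.25 bp.

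The rule of 1 bp rarely decided whether a peak was shared. Only 5 of the overlapping pairs overlapped by less than 50 bp, and no peak alone had a peak of the other factor closer than 50 bp. The least overlap was 3 bp, on 3RHet between WOC at 2468668 to 2468913 and HP1c at 2468911 to 2469219, followed by 11 bp on chromosome 4 at 297230 and 13 bp on 3L at 2554538. The smallest gaps were 57 bp on 3L, between WOC at 11967510 to 11967750 and HP1c at 11967163 to 11967452, 70 bp on 2L at 5107965 and 81 bp on 3R at 19495400. The pairs with the largest offsets were those in which a very wide WOC peak of chromosome 4 covered several HP1c peaks, at 2459, 1815.5 and 1514.5 bp.

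Peaks alone were mostly far from the other factor. WOC peaks alone lay a median of 8617 bp from the nearest HP1c peak (8042 to 9204), and 8% lay within 1 kb (6.96 to 9.19). HP1c peaks alone lay 7039 bp from the nearest WOC peak (6444 to 7749), and 10.3% lay within 1 kb (8.94 to 11.9). With and without ROW the medians were 8736 and 7994 bp for WOC, with overlapping intervals (8078 to 9485 and 6391 to 9310). For HP1c they were 5915 bp (4613 to 7047) and 7408 bp (6655 to 8304), again with overlapping intervals. A single ROW peak bridged WOC and HP1c peaks that did not touch at 28 WOC peaks (1.23%) and 7 HP1c peaks (0.436%). Among peaks without ROW, a ROW peak lay within 1 kb of 6.82% of shared WOC peaks (4.90 to 9.42), 8.01% of shared HP1c peaks (5.91 to 10.8), 10.1% of WOC peaks alone (7.62 to 13.4) and 9.39% of HP1c peaks alone (7.94 to 11.1).

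Distance to the mark separated the sets by both partners. Measured to the nearest H3K4me3 summit, the median distance of peak centres was 456.5 bp for WOC alone (433 to 486.5), 3206 bp for shared WOC peaks (2567.5 to 3860.5) and 12913 bp for HP1c alone (11894.5 to 14430.5). With ROW, shared WOC peaks lay 1373 bp away (1145.5 to 1717) and without ROW 16586.8 bp (14442 to 21495.5). WOC alone lay 404 bp away with ROW (390.5 to 415.5) and 7819.8 bp without it (5950.5 to 9430). HP1c alone lay 8418 bp away with ROW (6743 to 10831) and 13875.2 bp without it (12663.5 to 15692).

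Regions were ranked by the authors' -log10 q-value of the H3K4me3 peak they met. The 3 shared regions ranked first were on chromosome 4 at 818071 to 818645 and at 225229 to 227932, and on the Y chromosome contig YHet at 66073 to 66485. All 3 held ROW and HP1b. Their H3K4me3 peaks had fold enrichments of 2.497, 10.86 and 2.997, so the first and the last were high in -log10 q without being high in fold. The first WOC peak alone was on 2RHet at 199716 to 200050, with ROW, under an H3K4me3 peak of 3411 bp (198489 to 201899, -log10 q 202.5, fold enrichment 6.89). The far end of the same H3K4me3 peak overlapped a shared region at 201584 to 202004 that held HP1b and no ROW, a region chosen after its values were seen. The next WOC peaks alone were at 2L:10250332-10250822 and 2R:1193852-1195423. The first HP1c peaks alone were at 4:1286278-1286543 and 3L:23330518-23330924, both with ROW, and at 3L:23093629-23093931 without it. Across the genome 28 H3K4me3 peaks held a shared region and a WOC peak alone and no HP1c peak alone, while 1017 held only shared regions and 1323 only WOC peaks alone. The authors' fold enrichment of the mark had a median of 4.25 at shared regions (4.18 to 4.36) and 4.11 at WOC alone (4.05 to 4.18).

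Along the chromosomes the factors were least often shared, from the side of WOC, on X. HP1c was met by 31.1% of the 618 WOC peaks on X (27.6 to 34.8), by 48.6% to 55.8% of those on the other main arms, by 82.9% on chromosome 4 (184 of 222, 77.4 to 87.3) and by 79.3% on the heterochromatin contigs (361 of 455, 75.4 to 82.8). From the side of HP1c, X did not fall below the others: WOC was met by 69.5% of the 275 HP1c peaks there (63.8 to 74.6), against 57.2% to 64.9% on the other main arms, 70.1% on chromosome 4 (64.5 to 75.1) and 59.5% on the heterochromatin contigs (55.6 to 63.3). X held 18.7% of WOC peaks alone (17.2 to 20.4), 7.33% of shared WOC peaks (6.39 to 8.39) and 5.23% of HP1c peaks alone (4.24 to 6.43).

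The relation of ROW to sharing in the WOC list also depended on the chromosome. On 3R HP1c was met by 46.6% of WOC peaks with ROW (43.2 to 50.1) and by 58.0% of those without (50.5 to 65.2), so the intervals separated only narrowly. On chromosome 4 the order was the opposite, at 89.3% with ROW (84.0 to 92.9) and 50% without it (18 of 36, 34.5 to 65.5), and likewise on the heterochromatin contigs, at 86.4% (82.0 to 89.8) and 65.6% (57.8 to 72.6). On X, 2L, 2R and 3L the intervals overlapped. In the HP1c list ROW went with WOC everywhere: WOC was met by 86.3% to 90.6% of HP1c peaks with ROW and by 21.6% to 34.6% of those without, across the 5 main arms, chromosome 4 and the heterochromatin contigs.

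**Figure D5:**
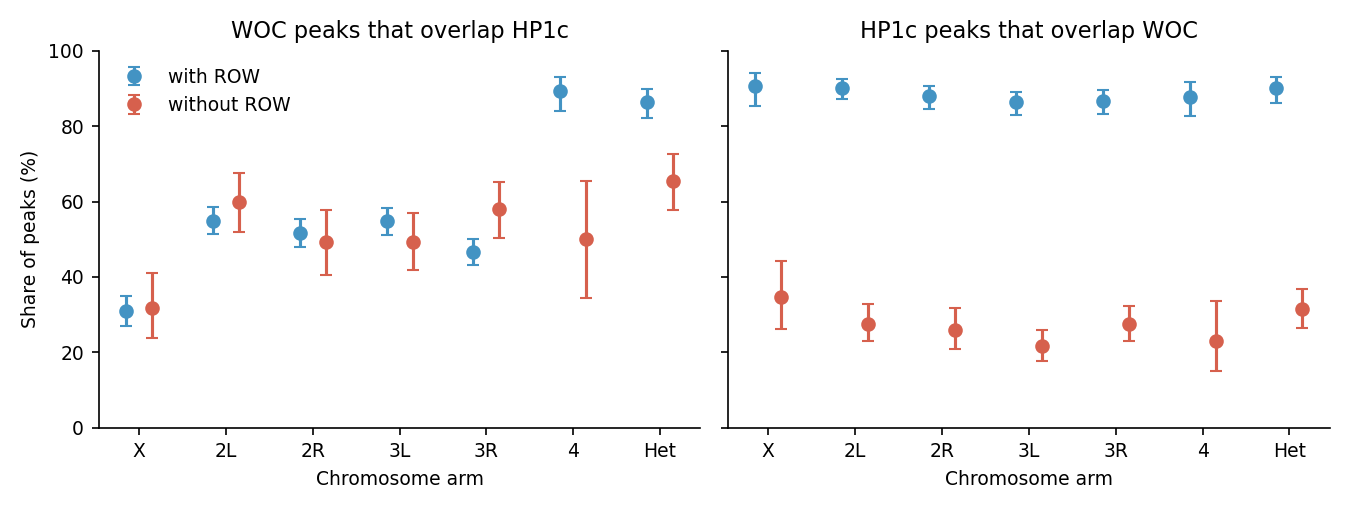
Share (%) of WOC peaks that overlapped HP1c (left) and of HP1c peaks that overlapped WOC (right), with and without ROW, by chromosome arm, with 95% Wilson intervals. Het stands for the heterochromatin contigs. HP1c peaks with ROW lie between 86.3% and 90.6% throughout. The ROW groups of WOC peaks separate on chromosome 4 and Het and, narrowly and in the opposite order, on 3R.

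In windows of 1 Mb on the main arms, the median count was 15 shared regions, 17 WOC peaks alone and 10 HP1c peaks alone. The first megabase of chromosome 4 had the most shared regions of any window (136, of which 121 had ROW) and the most HP1c peaks alone (59, of which 18 had ROW). The next windows of shared regions were 2L from 21000001 to 22000000 (58, of which 52 had ROW) and the first megabase of 2RHet (56, of which 40 had ROW). HP1c alone came next in that same window of 2RHet (49, of which 8 had ROW) and on 3LHet from 1000001 to 2000000 (33, of which 2 had ROW). WOC alone peaked elsewhere, on X from 15000001 to 16000000 (47, of which 41 had ROW) and on 3R from 5000001 to 6000000 (39, 32 with ROW) and from 1000001 to 2000000 (37, 32 with ROW).

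Pooled over all contigs, regions of each kind neighboured their own kind somewhat more often than their share of all regions. Shared regions made up 40.1% of the 6484 regions outside the mitochondrial genome, and 43.0% of the neighbours of shared regions were shared (41.7 to 44.4). WOC alone made up 35.1% of regions and 44.5% of its own neighbours (43.0 to 45.9). HP1c alone made up 24.8% of regions and 29.7% of its own neighbours (28.2 to 31.3), and 20.0% of the neighbours of WOC alone (18.9 to 21.2). The most frequent neighbours of HP1c alone were shared regions (41.9%, 40.2 to 43.6). These shares pool arms that differ in their make-up, and whether the excess holds within an arm was not tested.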

How the data were processed

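Per the labels, 16 ChIP-seq libraries of fly heads were made with 6 antibodies or controls. Bowtie2, SAMtools, MACS2, deepTools and the build dm3 appear in the submitters' processing notes. The sources used here do not give versions, roles or thresholds, nor how replicates were combined. For each of 5 antibodies the authors deposited a single peak list. The WOC, HP1c, ROW and HP1b lists hold start and end positions (bp) only. For H3K4me3 the deposited list also holds fold enrichment (a ratio), the -log10 q-value (at least 3.02) and the summit. Depth is unknown, since the lists hold no read counts, and depth can change both the number and the width of called peaks.

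Peaks were called overlapping at 1 bp or more. ROW, HP1b or H3K4me3 was taken as present when any of its peaks overlapped the WOC or HP1c peak. Overlapping WOC and HP1c peaks were merged into regions. A centre is the midpoint of a peak. Offsets and width differences used pairs of 1 WOC and 1 HP1c peak outside the mitochondrial genome. The functions were tested on simulated intervals with known answers.

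The sets and lists were chosen with earlier results of these data known. Named regions, apart from the mitochondrial genome, are the 3 widest of each set with and without ROW, the 3 pairs with the largest offset, the least overlap or the smallest gap, and per set the 3 windows of 1 Mb with the most peaks and the 3 peaks with the highest H3K4me3 -log10 q. Alternatives changed the overlap rule (0.5 of the shorter peak, or centres within 200 bp, for the factor lists), the contigs and the widths used. Coordinates of the gene table at hand, which is of a later build, were not used. Figures were drawn with matplotlib 3.10.9, and the rest was computed with SciPy 1.17.1, pandas 2.3.3 and NumPy 2.4.6 in Python 3.11.15.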

Additional observations from a re-analysis of the deposited data

How the results depend on the processing

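No paired analysis was possible because only combined lists, 1 for each antibody, were used, and no replicate could be left out for the same reason. With an overlap of at least 0.5 of the shorter peak all 16 results moved by less than their interval. With centres within 200 bp, HP1c was met by 48.9% of WOC peaks, WOC by 56.3% of HP1c peaks, ROW was at 77.3% of shared WOC peaks and 76.0% of WOC peaks alone, and the centre offset was 39.25 bp. On the main arms alone HP1c was met by 49.2% of WOC peaks and ROW was at 83.5% of WOC peaks alone. With peaks at or above the median width of each list, HP1c was met by 47.1% of WOC peaks, WOC by 55.0% of HP1c peaks, ROW was at 75.4% of shared WOC peaks, 85.9% of WOC alone and 11.4% of HP1c alone, and the offset was 51.5 bp. This alternative also drops narrow partners, by construction, so its peaks alone include peaks that met a narrow peak of the other factor. Centres within 200 bp cap the offset. The H3K4me3 overlap stayed at 1 bp throughout. The values listed here for centres within 200 bp, for the main arms and for the width limit all left the interval of the main result. They were 13 of the 24 alternatives for the main results. Of the 40 alternatives for the other 10 results, 17 left the interval. In all 4 alternatives ROW and HP1b were more frequent at shared WOC peaks than at HP1c alone and WOC alone respectively, H3K4me3 was more frequent at WOC alone than at shared WOC peaks, and shared peaks were wider in both lists. Unknown depth limits every share, since a missing peak may be a missed one.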

Other observations

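A regular array of shared sites stood out in the 2L window from 21000001 to 22000000, and was chosen after its values were seen. Shared regions were joined into runs whose successive centres lay 4 to 6 kb apart. The longest run of the genome held 18 shared regions between 2L:21450317 and 21536389, with a median step of 4982 bp (range 4807.5 to 5592). A second run of 5, between 2L:21416176 and 21437059, had a median step of 5044.5 bp (range 4752 to 5083.5), and no other run exceeded 4. All 18 and all 5 regions held ROW and HP1b, and their median widths were 1025.5 and 1098 bp. The WOC and HP1c peaks of the 18 regions had similar widths (medians of 1012 and 1007 bp) and a median centre offset of 20.25 bp (range 1.5 to 124), below the 43 bp of all pairs. The stretch of 18 held 27 H3K4me3 peaks with the authors' fold enrichments of 1.40 to 2.34, and 4 of the 18 regions overlapped one. A single unshared peak lay within it. The DNA sequence and genes of the stretch were not analysed here, and whether its sites repeat one sequence was not tested.

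The densest 100 kb of shared regions on the main arms was elsewhere on 2L, from 10330878 to 10431434, with 20 shared regions, of which 19 held ROW, 17 the mark and 12 HP1b, beside 5 WOC peaks alone and no HP1c peak alone. The densest 100 kb of HP1c alone on the main arms, on 2R from 6351648 to 6442651, held 11 such peaks, of which 1 had ROW, 2 had HP1b and none had the mark, beside 8 shared regions and 2 WOC peaks alone. The densest 100 kb of WOC alone on the main arms, on 3L from 9359988 to 9459935, held 14 such peaks, of which 13 had ROW, 8 the mark and none HP1b, beside 2 shared regions and 1 HP1c peak alone. The densest on X, from 15591099 to 15690447, held 12 peaks, all with ROW, beside 1 HP1c peak alone and no shared region. These stretches were chosen after their values were seen.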
